A study of Mus musculus with 4 samples.

Results

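The collagen genes described here were Col1a1, Col1a2, Col3a1, Col5a1, Col5a2, Col6a1, Col6a2, Col4a1 and Col4a2, taken by their gene symbols from the single-cell matrix of mouse salivary glands. They were 9 of the 32285 genes listed and 9 of the 44 genes there whose symbols name a collagen chain. A total of 5 encode chains of fibrillar collagens (types I, III and V), 2 encode chains of type VI collagen and 2 encode chains of type IV collagen. They were picked by name, as chains of these collagen types.

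Collagens are proteins of 3 chains wound around each other. The chains are assembled in the endoplasmic reticulum, where prolines and lysines are hydroxylated and the chaperone Hsp47 binds, and they are then secreted and cross-linked outside the cell. Types I and III make the thick fibrils of connective tissue, and type V is built into the same fibrils and limits their width. Type VI forms beaded filaments next to cells. Type IV forms the sheet of the basement membrane under epithelia and around capillaries, muscle and myoepithelial cells. In salivary glands the septa and capsule hold fibrillar collagen, while basement membrane surrounds each acinus, duct and vessel.

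Single-cell RNA was measured in 4 samples that each held both large salivary glands of the floor of the mouth, the submandibular (SMG) and the sublingual (SLG). They came from untreated wild-type female C57BL/6N mice that were 6 to 8 weeks old, and all shared this condition. The labels name 2 mice, while the methods text differs from them in that number. The glands were dissociated with several collagenases, pancreatin, dispase and hyaluronidase, and how well each cell type came free of the matrix was not measured.

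The deposited matrix held 15707 cells and 125100595 unique molecular identifiers (UMIs, 1 for each captured RNA molecule), with a median of 2608 UMIs and 689 genes per cell. Cells were not tied to samples, and the matrix was therefore treated as 1 pooled sample with no replicates and no test. Cells were clustered without any collagen gene into 30 clusters, and 19 of them were named as 11 classes from marker genes that include no collagen. The suffix "-like" marks such a name. The other 11 clusters, with 6953 cells, stayed unnamed, most of them with few genes per cell. A level is the number of UMIs of a gene summed over a class per 10000 UMIs of that class. UMIs count molecules by their 3′ ends, so levels were not divided by gene length. All intervals are 95% intervals that cover counting error only. The 10 most abundant genes took 75.5% of all UMIs, and a UMI of the acinar gene Dcpp1 was found in 97.6% of mural-like cells and in 90.6% to 100% of the cells of each fibroblast-like and endothelial-like sub-cluster.

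The classes that bear on the collagens fitted their names in part. The 259 fibroblast-like cells showed 14 of 17 fibroblast markers, with Dcn at 113, Lum at 22.5 and Pdgfra at 6.02, and Pecam1 had 0 UMIs there. The 290 endothelial-like cells showed 14 of 16 endothelial markers, with Pecam1 at 7.72 and Cdh5 at 4.84. The 84 mural-like cells, named for the cells that wrap vessels, showed 11 of 16 mural markers. Acta2 and Myh11, contractile genes of smooth muscle, were found in all 84 cells. Pln, another smooth muscle marker, was found in 66.7%. Of the 7 pericyte markers, Rgs5 (19.3, in 70.2% of cells), Ndufa4l2 and Cox4i2 were shown by the class. Kcnj8 and Abcc9 were found in only 1 and 2 cells, so the class leaned to smooth muscle. These 2 pericyte markers were found in 52.2% and 56.5% of an endothelial-like sub-cluster of 46 cells described below. The 58 myoepithelial-like cells had Acta2 at 28.8 and Krt14 at 7.18, and the 171 basal duct-like cells had Krt14 at 9.94 and Acta2 at 0.440. The myoepithelial marker Oxtr had 0 UMIs in the myoepithelial-like cells. The secretory gene Smgc was at 272 in them, against 33.6 in basal duct-like cells, the next class. Their median of 2013 genes was the highest of the classes, and whether they held RNA of secretory cells was not tested. The summed level of the 17 fibroblast markers was 403 in fibroblast-like cells. It was 5.68 in endothelial-like, 7.02 in mural-like, 9.93 in myoepithelial-like and 19.3 in basal duct-like cells. Gsn was the highest single marker in fibroblast-like (194) and mural-like cells (4.62), and Fbln2 in endothelial-like cells (2.41). Dcn was the highest in myoepithelial-like (6.27) and basal duct-like cells (13.99). The part of these RNAs in the collagen levels outside fibroblast-like cells was not tested.

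Positions are on mouse build GRCm38 from the GENCODE M21 annotation, and sequences are from RefSeq on GRCm38.p6. Col4a1 (ENSMUSG00000031502, chr8:11198423-11312826, minus strand) and Col4a2 (ENSMUSG00000031503, chr8:11312805-11449287, plus strand) are transcribed away from each other, and their annotated first exons overlap by 22 bases at chr8:11312805-11312826. These bases are shown because both type IV genes start in them. Capitals mark a GC box, GGGCGG on the plus strand, a motif that Sp1-type factors are known to bind.

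Col4a2 sense, plus strand: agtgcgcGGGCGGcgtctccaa
Col4a1 sense, minus strand: ttggagacgCCGCCCgcgcact

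Col3a1 (ENSMUSG00000026043, chr1:45311538-45349706, plus strand) and Col5a2 (ENSMUSG00000026042, chr1:45374321-45503282, minus strand) are neighbours that lie 24614 bases apart. Col6a2 (ENSMUSG00000020241, chr10:76595762-76623630) and Col6a1 (ENSMUSG00000001119, chr10:76708792-76726168), both on the minus strand, lie 85161 bases apart. Col1a1 (ENSMUSG00000001506, chr11:94936224-94953042), Col1a2 (ENSMUSG00000029661, chr6:4504814-4541544) and Col5a1 (ENSMUSG00000026837, chr2:27886425-28039514), all on the plus strand, lie alone. RefSeq promoters matched 7 of the 9 genes. The 250 bases before the start were searched on both strands for the CCAAT box (its letters are its name), the TATA box (TATAAA) and the GC box (GGGCGG). The CCAAT box was found for 3 of the 7 genes, the TATA box for 1 and the GC box for 4, while 33.9%, 12.4% and 32.7% of all 32851 mouse promoter windows held these motifs. Col3a1 and Col5a1 are shown because, in the same fibroblast-like cells, the former was among the most abundant fibrillar members and the latter the least, and because both windows hold no annotated exon. Capitals mark TATAAA in Col3a1, at base -117 from the start, and the GC boxes of Col5a1, at bases -205 and -73. A match is a description of letters and not of a site in use.

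Col3a1 promoter, chr1:45311288-45311537, plus strand: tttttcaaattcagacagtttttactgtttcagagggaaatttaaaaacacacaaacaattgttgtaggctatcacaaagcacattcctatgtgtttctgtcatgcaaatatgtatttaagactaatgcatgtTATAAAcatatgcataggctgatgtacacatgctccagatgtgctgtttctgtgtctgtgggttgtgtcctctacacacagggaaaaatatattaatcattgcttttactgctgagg
Col5a1 promoter, chr2:27886175-27886424, plus strand: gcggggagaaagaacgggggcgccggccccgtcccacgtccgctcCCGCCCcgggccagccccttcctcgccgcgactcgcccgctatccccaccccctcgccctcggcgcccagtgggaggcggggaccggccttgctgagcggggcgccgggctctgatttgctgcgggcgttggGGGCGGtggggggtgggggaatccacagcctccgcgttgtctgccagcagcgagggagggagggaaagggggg

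The fibrillar collagens were found mainly in fibroblast-like cells. Their summed level was 78.2 (76.0 to 80.4) in these 259 cells, against 1.28 (1.06 to 1.54) in endothelial-like and 1.06 (0.637 to 1.65) in mural-like cells, a ratio of 60.9 (50.6 to 74.1) over the next class, which ranged from 29.8 to 74.0 under the alternatives. Fibroblast-like cells were 1.65% of all cells and held 76.4% (75.4 to 77.5) of the 6546 fibrillar UMIs. All 259 of these cells had a fibrillar UMI.

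Col1a2, the second chain of type I collagen, was the most abundant member at 32.6 (31.2 to 34.0), and it was 65.1 times (34.2 to 143) the level in mural-like cells, the next class at 0.501. Col3a1, whose product pairs with type I in fibrils, reached 29.6 (28.3 to 31.0) and was 66.5 times (33.7 to 154) its mural-like level of 0.446. Col1a1, the other type I chain, was at 9.27 (8.54 to 10.0), which was 74.2 times (41.2 to 149) the endothelial-like level of 0.125. It had 0 UMIs in mural-like, lymphoid-like and mucous acinar-like cells. With a floor of 3 UMIs in place of 0, its mural-like level would be 0.167 and the fibroblast-like ratio 55.5 (18.9 to 270). The upper limit of the mural-like level itself was 0.2055. The type V chains were lower. Col5a2 stood at 4.81 (4.29 to 5.38), 24.9 times (15.3 to 43.4) the endothelial-like level of 0.193, and Col5a1 at 1.88 (1.56 to 2.24), 20.6 times (10.1 to 48.9) its level of 0.0909.

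**Figure D1:**
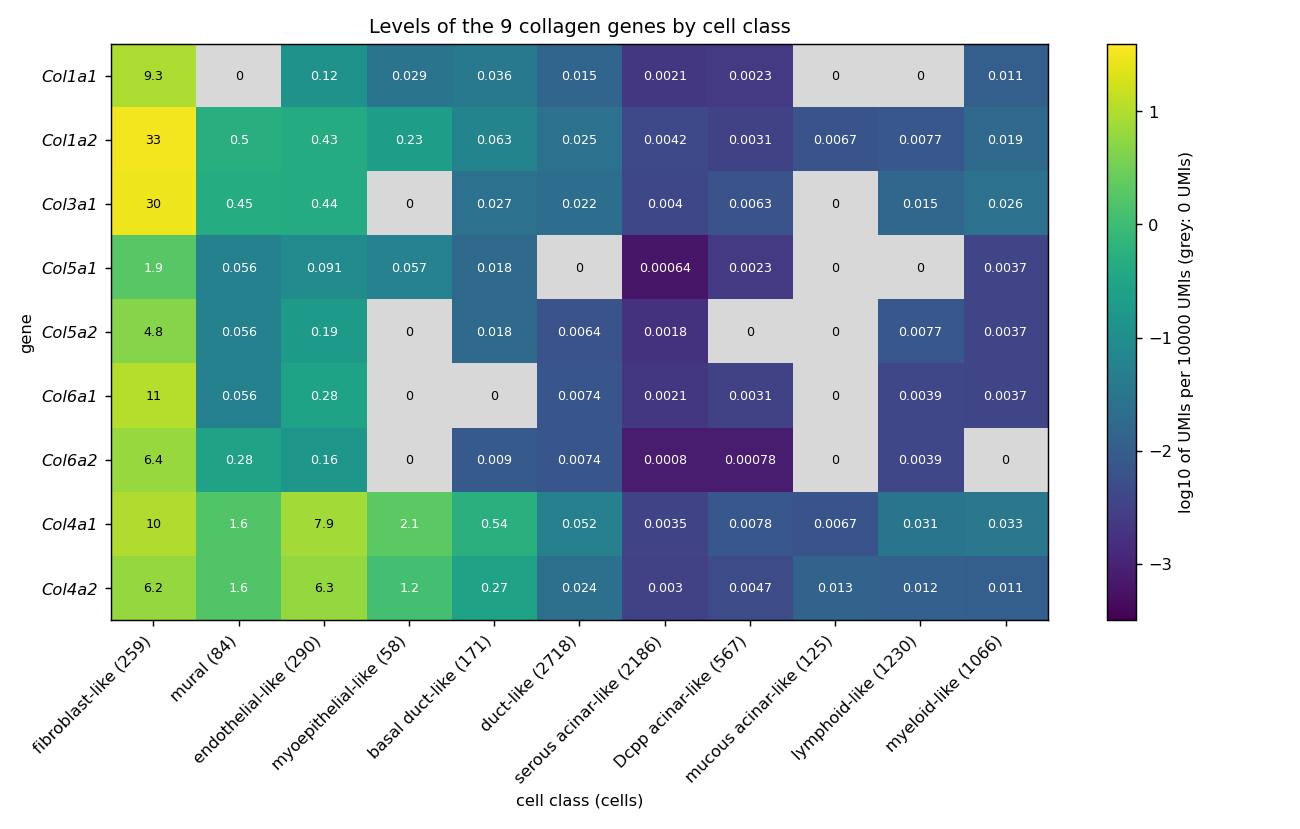
Levels of the 9 collagen genes (UMIs per 10000 UMIs, logarithmic color scale, value in each cell) in the 11 classes of cells. The fibroblast-like class is highest for 8 genes, and only Col4a1 and Col4a2 reach 6 or more in a second class, the endothelial-like cells.

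The share of cells with a UMI followed the levels. Col1a2 was found in all 259 fibroblast-like cells, Col3a1 in 99.2%, Col1a1 in 84.2%, Col5a2 in 68.3% and Col5a1 in 36.3%. With each cell thinned to 500 UMIs the shares were 76.8%, 72.6%, 39.0%, 24.7% and 10.4%. In serous acinar-like cells, which should lack these genes and had a median of 25863 UMIs against 2110 in fibroblast-like cells, Col1a2 was found in 1.19% of cells, or 0.0458% after thinning. In lymphoid-like cells, with a median of 1867 UMIs, it was found in 0.163%. The shares of Col1a2 in mural-like cells (10.7%; thinned 3.57%) and endothelial-like cells (7.24%; thinned 1.38%) were above both.

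Type VI collagen had the same main source. The summed level of Col6a1 and Col6a2 was 17.1 (16.1 to 18.1) in fibroblast-like cells, 0.443 (0.315 to 0.606) in endothelial-like cells and 0.334 (0.123 to 0.728) in mural-like cells, a ratio of 38.6 (28.1 to 54.6) over the next class. Without an endothelial-like sub-cluster of 46 cells that also showed pericyte markers, the ratio to endothelial-like cells was 112 (62.4 to 225). Mural-like cells were then the next class, at a ratio of 51.15 (23.43 to 139.7). Under the alternatives the ratio to the next class ranged from 19.96 to 74.59. Of the 1400 type VI UMIs, 78.1% (75.9 to 80.3) lay in fibroblast-like cells. Col6a1 was at 10.7 (9.92 to 11.5), 37.7 times (25.3 to 58.7) the endothelial-like level, and was found in 87.3% of fibroblast-like cells. Col6a2, its partner in the same heterotrimer, was at 6.39 (5.79 to 7.04), 22.9 times (9.75 to 71.1) the mural-like level, and was found in 76.4%. The myoepithelial-like cells had 0 type VI UMIs, and with a floor of 3 UMIs in place of 0 the fibroblast-like ratio would be 199 (67.95 to 967). The basal duct-like cells had 1 type VI UMI.

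A gene was counted as marking a class when its level was highest there and at least 4 times that of the next class. In fibroblast-like cells all 7 fibrillar and type VI genes met this, and 1.57% of the 12486 genes with at least 50 UMIs did. None of the 9 genes met it in endothelial-like, mural-like or myoepithelial-like cells, where 1.18%, 1.09% and 0.304% of genes did. With 1 pooled sample these shares carry no test.

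**Figure D2:**
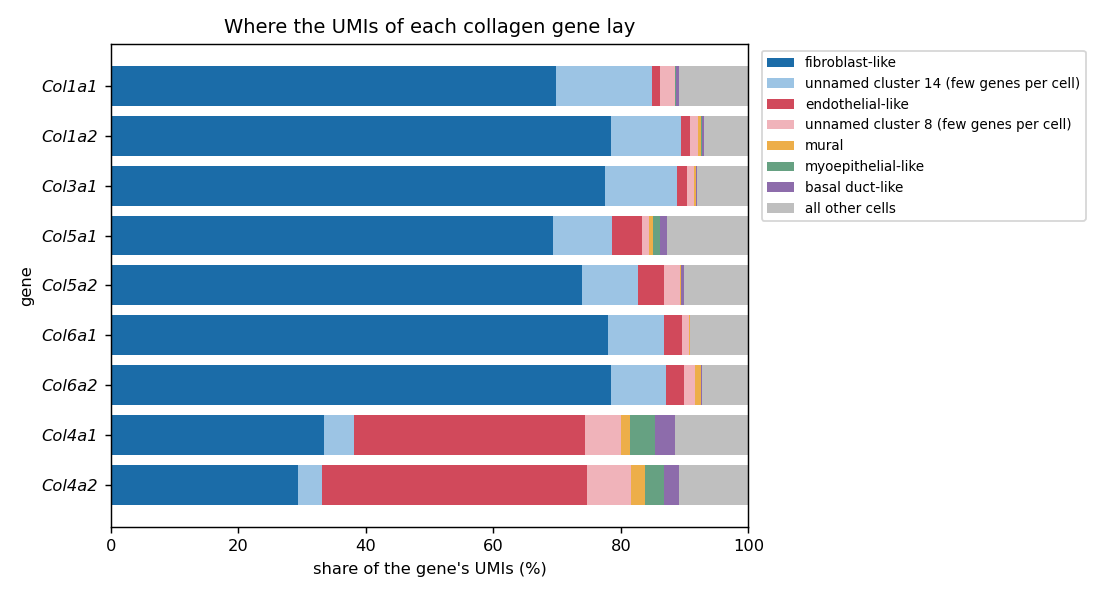
Share of the UMIs of each collagen gene (percent, stacked bars) by group of cells. The groups are the fibroblast-like, endothelial-like, mural-like, myoepithelial-like and basal duct-like classes, the unnamed clusters 14 and 8 and all other cells. Summed over the genes of a type, which is not drawn, the fibroblast-like class holds 76.4% of fibrillar and 78.1% of type VI UMIs. Type IV is split between endothelial-like cells at 38.4% and fibroblast-like cells at 31.8%.

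Type IV collagen was spread over more cells. The summed level of Col4a1 and Col4a2 was 16.2 (15.2 to 17.2) in fibroblast-like and 14.2 (13.4 to 15.0) in endothelial-like cells, a ratio of endothelial-like to fibroblast-like of 0.878 (0.808 to 0.955). The order of these neighbours turned under 3 other settings, with ratios of 1.08 for mean UMIs per cell, 1.21 for clusters at a lower resolution and 1.26 for the capillary-like endothelial cells alone. Both stood well above the other classes. Myoepithelial-like cells, which contract around acini, were at 3.26 (2.69 to 3.92) and mural-like cells at 3.23 (2.45 to 4.18), and these neighbours did not differ beyond their intervals (ratio 0.990, 0.709 to 1.37). Endothelial-like cells were 4.40 times (3.38 to 5.83) the mural-like level, and between 1.41 times, with low-gene clusters joined, and 8.04 times, after thinning, under the alternatives. In the epithelium the order ran from myoepithelial-like cells through basal duct-like cells at 0.809 (0.650 to 0.994) to duct-like cells at 0.0765 (0.0598 to 0.0963). Myoepithelial-like cells were 4.04 times (3.03 to 5.38) basal duct-like cells, which were 10.6 times (7.67 to 14.6) duct-like cells. The myoepithelial-like class did not form at the lower resolution or with 10 principal components. The 2 classes were only pooled under the alternatives, so the step between them rests on the main clusters. Duct-like cells were in turn above the 0.0425 (0.0212 to 0.0760) of lymphoid-like cells, but the intervals overlapped. Serous acinar-like cells were at 0.00656.

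By gene, Col4a1 was at 10.0 (9.27 to 10.8) in fibroblast-like and 7.88 (7.31 to 8.49) in endothelial-like cells, a ratio of 1.27 (1.14 to 1.42). Col4a2 was the only member that was highest elsewhere, at 6.34 (5.82 to 6.89) in endothelial-like against 6.16 (5.56 to 6.80) in fibroblast-like cells, and this ratio of 1.03 (0.903 to 1.17) did not differ from 1 beyond counting error. Col4a1 was found in 83.4% of fibroblast-like, 76.9% of endothelial-like, 63.8% of myoepithelial-like, 21 of 84 mural-like and 21.6% of basal duct-like cells. In lymphoid-like cells, which should lack it, the share was 0.650%. Median depth was 5054 UMIs in myoepithelial-like and 1874 in mural-like cells. After thinning to 500 UMIs, a UMI of either type IV gene was found in 20.7% of myoepithelial-like and 8.33% of mural-like cells.

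Within single cells the types were combined in different ways. A fibroblast-like cell held UMIs of a median of 7 of the 9 genes, and 33 cells (12.7%) held all of them. Col1a1, Col1a2 and Col3a1 were found together in 216 cells (83.4%), both type VI genes in 68.3% and both type IV genes in 62.9%. The endothelial-like median was 2 genes, with both type IV genes in 60.7% of cells and both type VI genes in 2.76%. Both type IV genes were found in 37.9% of myoepithelial-like and 9.52% of mural-like cells, and 46.4% of mural-like cells had no UMI of any member. Across the 259 fibroblast-like cells, which are not replicates, both levels of a pair were divided by the same cell total. The highest rank correlations of these per-cell levels were those of Col1a2 with Col3a1 (rho 0.505) and with Col6a1 (rho 0.474).

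The fibroblast-like cells fell into 3 sub-clusters, which were also made without collagen genes. Sub-cluster 0 held 159 cells led by immediate-early and stress genes such as Egr2, Cxcl1 and Dnajb1, and sub-cluster 1 held 84 cells with acinar genes such as Prol1 and Car6 among those leading it. In these sub-clusters the fibrillar level was 67.7 (65.2 to 70.2) and 76.5 (72.6 to 80.6), the type VI level 15.6 and 18.7, and the type IV level 16.4 and 17.9. Sub-cluster 2 held 16 cells and showed 5 of 7 markers of adventitial fibroblasts, the cells of vessel sheaths and septa, with Pi16 in 14 of the 16 cells. The sub-cluster also showed the stromal fibroblast markers Penk, Inmt and Hsd11b1 and the pericyte markers Kcnj8 and Abcc9. Its fibrillar level was 203 (189 to 218), or 2.88 times (2.66 to 3.11) that of the other fibroblast-like cells, while its type IV level was 5.08 (3.06 to 7.93), or 0.301 times (0.180 to 0.472).

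The genes of a type mostly lay on the same side of 1 in this comparison. In sub-cluster 2 relative to the others, Col3a1 was 3.41 times (3.02 to 3.84), Col1a1 3.07 times (2.44 to 3.83) and Col1a2 2.64 times (2.33 to 2.99) as high. The type VI genes differed less, with Col6a1 at 1.46 times (1.10 to 1.92) and Col6a2 at 1.65 times (1.15 to 2.31), and of the type V genes Col5a1 was at 2.48 times (1.37 to 4.22) and Col5a2 at 1.24 times (0.764 to 1.91), an interval that includes 1. Col4a1 was at 0.333 times (0.176 to 0.574) and Col4a2 at 0.249 times (0.0909 to 0.547). Per cell, the summed type I and III level ranged from 52.1 to 509 with a median of 118 in the 16 cells, against a median of 64.0 in the other 243, so the cells overlapped. The per-cell type IV level ranged from 0 to 13.5 with a median of 1.84, against a median of 15.1. Median depth was 2138 UMIs in sub-cluster 2 and 2108 in the other cells. Pdgfra was at 1.87 in sub-cluster 2 and at 5.69 and 7.56 in sub-clusters 0 and 1.

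**Figure D3:**
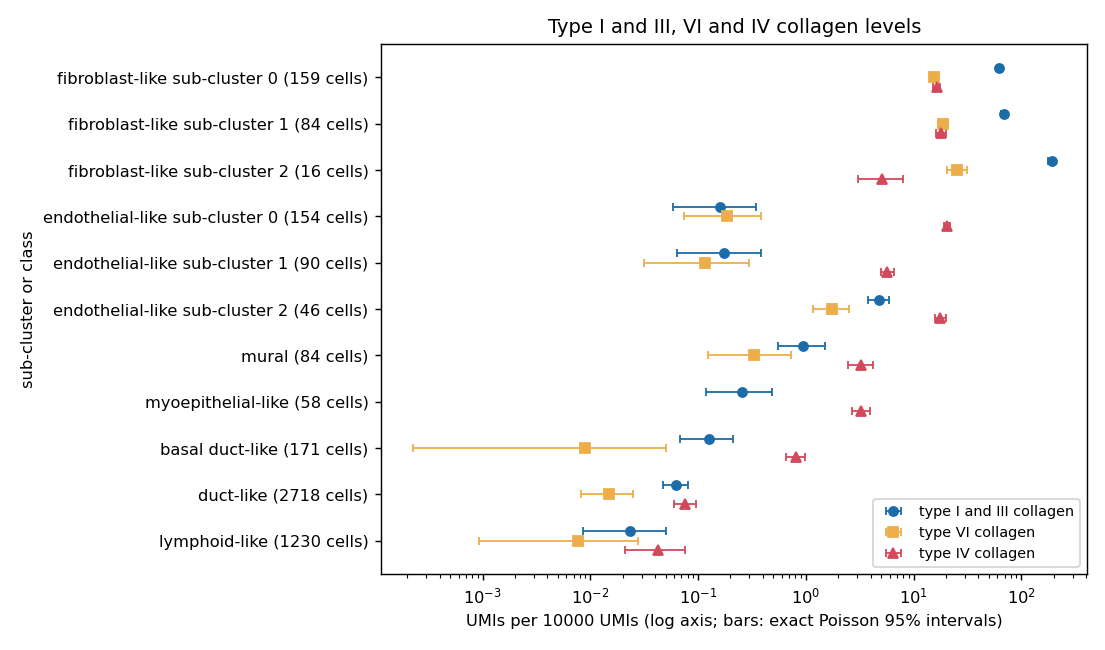
Summed levels (UMIs per 10000 UMIs, logarithmic axis) of type I and III, type VI and type IV collagen genes in sub-clusters and classes, with 95% counting intervals as bars. Fibroblast-like sub-cluster 2 has the highest type VI level at 25.4 and a type IV level of 5.08, below the 16.4 and 17.9 of the other fibroblast-like sub-clusters, and a group with 0 UMIs is not drawn.

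The endothelial-like cells also had 3 sub-clusters, which differed in type IV and fibrillar genes. Sub-cluster 0 (154 cells) showed all 6 capillary markers, and its type IV level of 20.5 (19.0 to 21.9) was the highest of all groups, at 1.26 times (1.15 to 1.39) the fibroblast-like class. It had 7 fibrillar UMIs, a level of 0.185 (0.0743 to 0.381), and 0 UMIs of Col1a1. Sub-cluster 1 (90 cells) was led by acinar genes, with Dcpp1 at 285 against 15.0 in sub-cluster 0, and had fewer genes per cell (766.5 against 1129), a higher median doublet score (0.0917 against 0.0321) and a type IV level of 5.72 (4.95 to 6.58). The part of these values in its lower type IV level was not tested.

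Sub-cluster 2 (46 cells) held 99 of the 113 fibrillar UMIs of the endothelial-like class, a level of 6.23 (5.06 to 7.58), with type VI at 1.76 (1.17 to 2.54) and type IV at 17.7 (15.7 to 19.9). It showed all 7 pericyte markers next to endothelial ones. Pecam1 was found in 89.1% of its cells, Rgs5 in 80.4% and both in 33 of 46. Its median depth was 3315 UMIs and 1653 genes, against 2261 and 1129 in sub-cluster 0, and its median doublet score was 0.0576. Whether these are cells of either type captured together was not tested. Of the 99 fibrillar UMIs, 38 lay in the 2 cells that also held Dcn. Without these cells the fibrillar level was 4.03 (3.08 to 5.18), and 26 of the remaining 44 cells had a fibrillar UMI. Its type IV level was 5.47 times (4.11 to 7.39) that of the mural-like class. Against the endothelial-like cells without sub-cluster 2, the fibrillar level of fibroblast-like cells was 403 times (240 to 738) as high rather than 60.9. Mural-like cells were then the next class, at a ratio of 73.87 (47.25 to 122.8).

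Among pairs of chains of the same protein, only Col4a1 and Col4a2 had UMI ratios whose intervals were separate between fibroblast-like and endothelial-like cells. Type IV collagen in most basement membranes is built from 2 chains encoded by Col4a1 and 1 encoded by Col4a2. Col4a1 exceeded Col4a2 by 1.63 times (1.44 to 1.85) in fibroblast-like and by 1.24 times (1.11 to 1.39) in endothelial-like cells, 2 intervals that did not overlap. The ratio was 1.00 (0.577 to 1.73) in mural-like, 1.78 (1.20 to 2.68) in myoepithelial-like, 2.00 (1.27 to 3.21) in basal duct-like and 2.13 (1.27 to 3.66) in duct-like cells. The endothelial-like sub-clusters 0 and 2 had 1.21 (1.05 to 1.40) and 1.21 (0.953 to 1.55), and sub-cluster 1 had 1.42 (1.06 to 1.91). Type I collagen has 2 chains from Col1a1 for each from Col1a2, yet the Col1a1 to Col1a2 ratio was 0.284 (0.259 to 0.311) in fibroblast-like cells. In endothelial-like cells it was 0.2895 (0.1335 to 0.5779). Ratios between genes also depend on how each 3′ end was annotated and captured, which was not tested, whereas the same pair can be compared between classes. Col6a1 exceeded Col6a2 by 1.67 times (1.48 to 1.90) in fibroblast-like and by 1.79 times (0.893 to 3.72) in endothelial-like cells. The Col5a1 to Col5a2 ratio was 0.390 (0.313 to 0.483) in fibroblast-like and 0.471 (0.176 to 1.15) in endothelial-like cells.

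**Figure D4:**
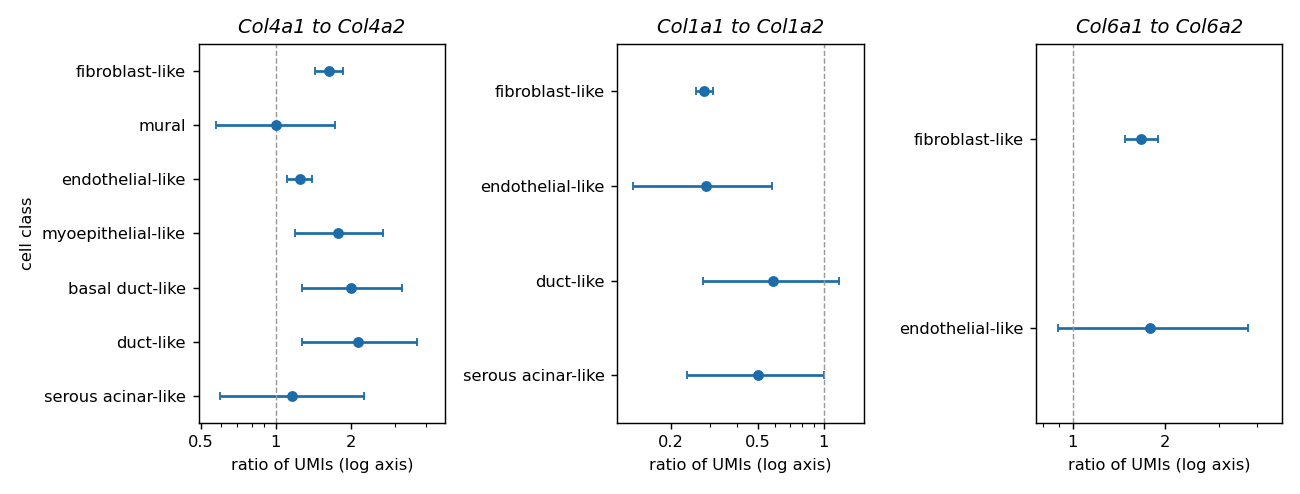
Ratio of the UMIs of 2 chains (points, with 95% counting intervals as bars, logarithmic axis) for Col4a1 to Col4a2, Col1a1 to Col1a2 and Col6a1 to Col6a2 by class, with a dashed line at 1. Col4a1 to Col4a2 is 1.63 in fibroblast-like and 1.24 in endothelial-like cells, and their bars do not overlap.

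Some collagen UMIs lay in unnamed clusters with few genes per cell. Cluster 14 (390 cells, a median of 422 genes) was led by Dcn, Lum and the collagens themselves and had a fibrillar level of 6.34 (5.90 to 6.81), 11.5% of all fibrillar UMIs. Its Col1a1 to Col1a2 ratio of 0.431 (0.347 to 0.532) was above that of the fibroblast-like class. Its Col4a1 to Col4a2 ratio of 1.76 (1.24 to 2.54) had an interval that overlapped that of the fibroblast-like class. Cluster 8 (646 cells, a median of 417.5 genes) was led by Fabp4, Plvap and other endothelial genes and had a type IV level of 0.871 (0.755 to 1.00) and a Col4a1 to Col4a2 ratio of 1.19 (0.889 to 1.58). Together with the fibroblast-like class, cluster 14 raised the share of fibrillar UMIs to 87.9%, and cluster 8 raised the endothelial-like share of type IV UMIs from 38.4% to 44.6%.

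Of the other 35 collagen chains, 9 had at least 200 UMIs. Col6a3, which encodes a further chain of type VI collagen, was at 6.17 (5.58 to 6.81) in fibroblast-like cells, next to 10.7 for Col6a1 and 6.39 for Col6a2. Col5a3, a further type V chain, was at 4.59 (4.08 to 5.15) there. Col15a1, a basement membrane zone collagen, was at 13.4 (12.5 to 14.3) in fibroblast-like and 2.25 (1.95 to 2.58) in endothelial-like cells, and Col14a1, which binds to fibrils, at 2.83 (2.43 to 3.27) in fibroblast-like cells. Col4a5, a chain of another type IV network, was at 0.609 (0.433 to 0.833) in fibroblast-like and 0.601 (0.372 to 0.919) in myoepithelial-like cells, whereas Col4a1 differed between them, at 10.0 and 2.09. Col13a1, a collagen that spans the cell membrane, had 74.4% of its 207 UMIs in endothelial-like cells.

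**Figure D5:**
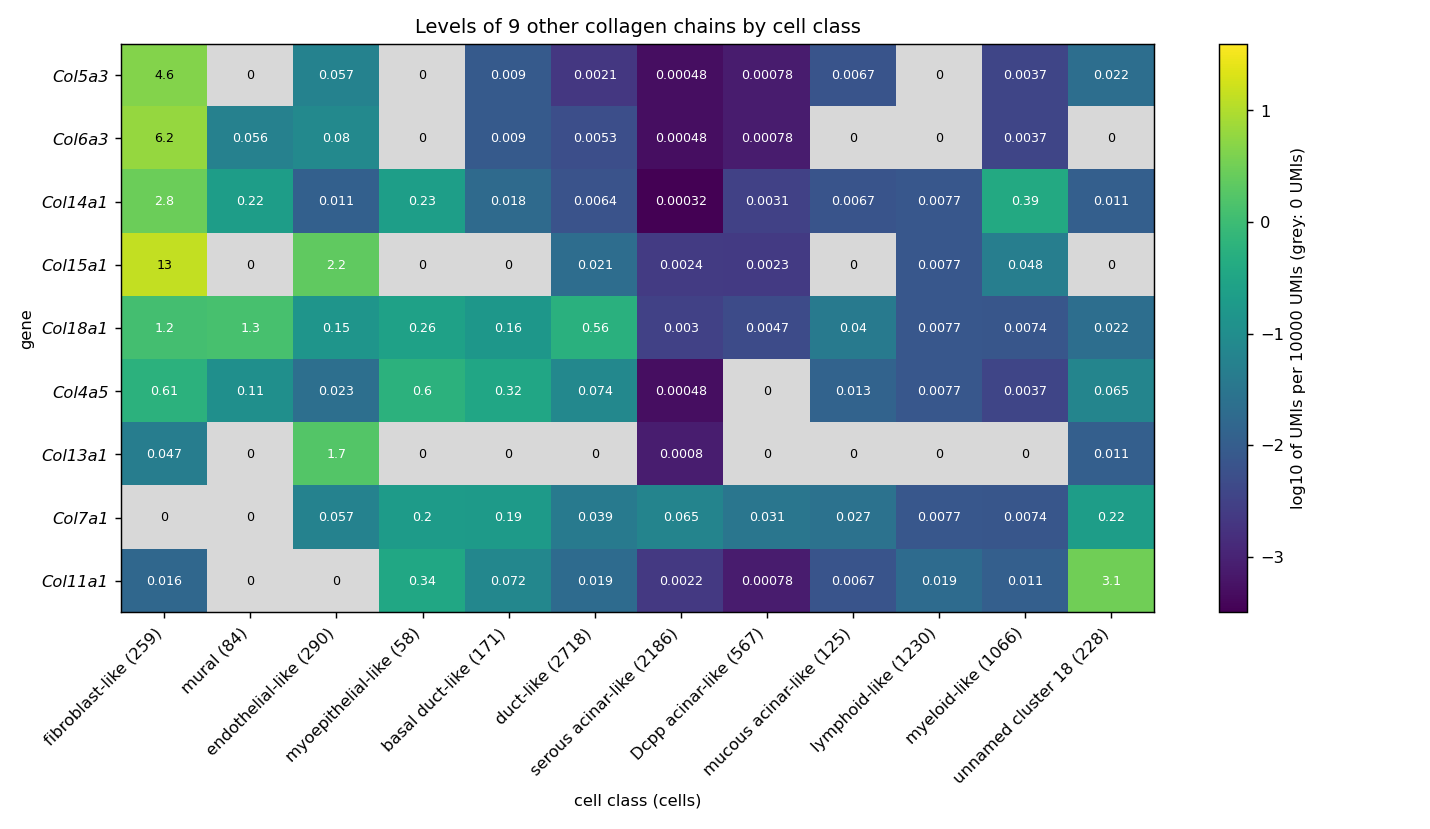
Levels (UMIs per 10000 UMIs, logarithmic color scale) of the other 9 collagen chains with at least 200 UMIs in the 11 classes and in the unnamed cluster 18. Col6a3, Col5a3, Col15a1 and Col14a1 are highest in fibroblast-like cells, Col13a1 in endothelial-like cells and Col11a1 in cluster 18 at 3.12.

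The genes that make and shape collagen followed the fibroblast-like class to different degrees. Over all 12486 genes, 16.2% were highest in that class and 1.57% by at least 4-fold. Of 20 measured genes of collagen modification and folding, 18 were highest there and 4 by at least 4-fold. These were Fkbp10 (6.29 times the next class), P3h1 (5.70), P3h3 (5.42, 1.77 to 27.1, over 3 UMIs) and Serpinh1, which encodes Hsp47 (13.1 against 3.24 in endothelial-like cells, 4.04 times, 3.53 to 4.64). Of 9 measured genes of procollagen processing and cross-linking, 7 were highest there and 3 by at least 4-fold, Pcolce (14.7), Loxl1 (11.7, 3.91 to 57.5, over 3 UMIs) and Bmp1 (4.43), of which Bmp1 cleaves the C-terminal propeptide and Pcolce aids it. Of 10 measured genes of collagen breakdown, 8 were highest and 5 by at least 4-fold, among them Mmp2 at 5.78 (127 times, 49.3 to 470) and the collagen-degrading protease gene Ctsk at 1.97 (35.4 times, 6.23 to 1407, over 1 UMI). Of 9 collagen receptors, 4 were highest and 2 by at least 4-fold, Antxr2 (11.8, 3.94 to 57.9, over 3 UMIs) and Mrc2, which takes up collagen (127, 22.2 to 5054, over 1 UMI). The leukocyte receptor Lair1 was at 1.47 in myeloid-like cells, 27.2 times the next class.

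Partners of the members were spread over several classes. Over all genes, 16.2% were highest in fibroblast-like cells and 1.57% by at least 4-fold. Of 14 measured basement membrane genes, 8 were highest in fibroblast-like cells and 5 by at least 4-fold, namely Lama2 (43.3 times, 11.9 to 360, over 2 UMIs), Lamc3 (19.8 times), Lamb1 (7.54 times), Nid2 (4.78 times) and Nid1 (4.77 times). None was highest in endothelial-like cells, where 12.0% of all genes were. Lamb2 (3.68) and Lama5 (1.23) were highest in mural-like cells, where 1743 of the 12486 genes were, and Lama3, Lamb3 and Agrn in myoepithelial-like cells, where 18.4% of all genes were. The shares in the latter classes were near those over all genes. Of 12 genes of the fibril surroundings, 7 were highest in fibroblast-like cells and 3 by at least 4-fold, Tnxb (17.2), Bgn (10.1) and Fbn1 (7.24). Aspn was highest in mural-like cells (13.3 times), and Fmod (8.11 times) and Postn (6.64 times) in myoepithelial-like cells. Over all genes, 1.09% were highest by at least 4-fold in mural-like and 0.304% in myoepithelial-like cells.

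Other genes were ranked by the likeness of their pattern, as Pearson's r of log2 levels over the 30 clusters among 9583 genes with at least 200 UMIs. This is a description, since the clusters share their libraries and differ in depth. Most like types I and III were Pdgfra (0.945), Abca8a (0.944), Col6a3 (0.944), Mxra8 (0.940) and Ogn (0.932). Most like type VI were C1qtnf2 (0.970), Pdgfra (0.969), C1ra (0.965), Col6a3 (0.964) and Lama2 (0.961). The genes most like type IV were others, Sparc (0.988), which binds collagen, Hspg2 (0.961), which encodes the basement membrane proteoglycan perlecan, Plpp3 (0.951), Osmr (0.942) and Ltbp4 (0.940). Sparc was at 22.1 in fibroblast-like, 13.7 in endothelial-like, 8.52 in mural-like and 7.41 in myoepithelial-like cells, the same order as type IV collagen except for the last pair.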

How the data were processed

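Single-cell RNA was measured in 4 samples of untreated SMG and SLG. The authors deposited 1 matrix of UMI counts, not normalized, with a single barcode suffix. The submitters' notes name Cell Ranger 6.0.1, Seurat 4.1.1 and mm10. All cells were kept. The clustering used Seurat 5.3.0 in R 4.3.3 with log-normalization at a scale factor of 10000, 2000 variable genes less 24 collagen genes, 20 principal components and a Louvain resolution of 1 (0.5 within classes). A marker counted when it was found in at least 25% of the cells of a cluster at a higher level than in the other cells. A name needed 3 markers and a median of 500 genes, a limit that clusters 14 and 8 missed. It also needed that no list of another class had more genes among the 10 leading genes. This rule left clusters 18, 20 and 27 unnamed. The lists with most markers in clusters 14 and 8 were those of serous acinar and Dcpp acinar cells. These clusters were therefore joined to the fibroblast-like and endothelial-like classes by their leading genes, not by this naming. Doublets were scored by Scrublet in scanpy 1.11.5 and kept, except in an alternative. Levels have exact Poisson intervals, shares Clopper-Pearson intervals and ratios exact conditional binomial intervals, computed with Python 3.11.15, numpy 2.4.6, scipy 1.17.1 and pandas 2.3.3 and tested on simulated counts. Likeness used a pseudocount of 0.1.

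Named genes were the 9 members, other chains with at least 200 UMIs, up to 4 genes of each pathway list at 4-fold or more, the 5 genes most like each pattern and class markers. Others, such as Nid1, Lama3 or Dcpp1, were named after their values were seen. The members and lists were chosen with earlier results of these data known. Alternatives were other resolutions, numbers of components and filters, cells classed by marker lists, other totals, background subtraction, doublet removal and thinning.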

Additional observations from a re-analysis of the deposited data

How the results depend on the processing

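No result has a replicate error, because cells were not tied to samples. No paired analysis was possible because the cells carry no sample or replicate number, and no sample could be left out. Under 13 planned and 2 added alternatives, the 8 main quantities gave 110 values, of which 75 were called unchanged, 32 moved and 3 changed direction. A ratio or share was called unchanged when it lay inside the counting interval of the reported value. The count of members highest in fibroblast-like cells has no such interval and was called unchanged within 1.5-fold. All 15 of its values met this wide limit and are among the 75. Fibroblast-like cells remained the highest class for fibrillar and type VI genes throughout, with log2 ratios to the next class from 4.90 to 6.21 and from 4.32 to 6.22. In log2 units, the fibrillar ratio was 5.93 as reported, 5.47 at resolution 0.5, 5.20 with cells classed by marker lists, 5.63 for mean UMIs per cell and 4.90 with clusters 14 and 8 joined to the fibroblast-like and endothelial-like classes, an alternative chosen after seeing the data. The type VI ratio was 5.27 as reported, 4.79 at resolution 0.5, 6.22 after thinning and 4.32 with the clusters joined.

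The type IV ratio of endothelial-like to fibroblast-like cells was -0.19 as reported. It changed direction at resolution 0.5 (0.27), for mean UMIs per cell (0.11) and with endothelial-like sub-cluster 0 alone (0.34, also chosen after seeing the data). It was -0.59 at resolution 2, -0.34 with 10 components, -0.43 with marker lists, -0.0128 without the 10 most abundant genes in the total, -0.0269 after thinning and -0.50 with the clusters joined. Mural-like against endothelial-like cells gave -2.14 as reported, -1.73 at resolution 2, -1.24 with marker lists, -2.64 for mean UMIs per cell, -3.01 after thinning, -0.50 with the clusters joined and -2.66 against sub-cluster 0 alone. Myoepithelial-like and basal duct-like against duct-like cells gave 4.19 as reported, 3.53 with marker lists, 5.07 for mean UMIs per cell, 4.77 after the mean of lymphoid-like cells was subtracted and 4.64 after thinning. With 10 components no such class formed, and no value was given. The myoepithelial-like class held 58 cells as reported, but its size depended on the setting. It held 0 cells at resolution 0.5, 140 at resolution 2, 164 with 30 components and 175 with collagen genes kept. Its levels apart from basal duct-like cells, and its 0 type VI UMIs, were not recomputed under the alternatives.

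The share of fibrillar UMIs in fibroblast-like cells was 76.4% as reported, 83.6% at resolution 0.5, 77.9% with 30 components, 79.8% with marker lists, 77.6% after subtraction, 78.2% without the 10% highest Scrublet scores, 80.0% after thinning and 87.9% with the clusters joined. The share of type IV UMIs in endothelial-like cells was 38.4%, or 44.6% with the clusters joined and 23.8% in sub-cluster 0 alone. Between 7 and 9 members were highest in fibroblast-like cells. The causes of these moves were not tested. Depth limits statements on rare classes, since 3 UMIs correspond to a level of 0.167 in mural-like and 0.0859 in myoepithelial-like cells.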

Other observations

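Some collagen chains outside the 9 genes were also found in epithelial or immune cells. Col11a1, a fibrillar chain best known from cartilage, had 288 of its 414 UMIs (69.6%) in the unnamed cluster 18, whose 228 cells were led by Smgc, a secretory gene of the submandibular gland. Its level there was 3.12 (2.77 to 3.50) with a UMI in 57.9% of cells, and it had 1 UMI in fibroblast-like and 0 in mural-like and endothelial-like cells, while the 5 fibrillar members together were at 0.0433 in the same cluster. Col7a1, the chain of anchoring fibrils, had 58.3% of its 693 UMIs in serous acinar-like cells, which held 49.9% of all UMIs. It was found in 15.4% of these deep cells and in 0.640% after thinning to 500 UMIs, at a level of 0.0647 (0.0585 to 0.0713). Its levels were higher in myoepithelial-like (0.200, 0.0805 to 0.413) and basal duct-like cells (0.189, 0.117 to 0.288), and fibroblast-like cells had 0 UMIs. Col18a1, a basement membrane chain, was at 0.556 (0.510 to 0.606) in duct-like cells, which held 61.4% of its UMIs, and at 1.28 (0.812 to 1.92) in mural-like and 1.20 (0.9496 to 1.504) in fibroblast-like cells. Col14a1, highest in fibroblast-like cells with 47.5% of its UMIs, was found in myeloid-like cells at 0.391 (0.320 to 0.473; 27.6% of UMIs), against 0.00772 in lymphoid-like cells.

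Decorin (Dcn), a proteoglycan that binds collagen fibrils, was at 113 (110 to 116) in fibroblast-like cells and also at 13.99 (13.3 to 14.7) in basal duct-like and 6.27 (5.47 to 7.16) in myoepithelial-like cells. Col1a2 was at 0.0629 and 0.229 there, and another fibroblast gene, Lum, had 1 and 0 UMIs. Dcn was chosen here after its values were seen.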
